A study of Mus musculus with 9 samples.

Results

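The chemokines and chemokine receptors of the mouse liver were taken as the genes whose symbols begin with Ccl, Cxcl, Ccr or Cxcr followed by a number, with 1 optional letter after the number for the Ccl genes. The deposited table held 54 such genes among 23337. They were 24 CC ligands, 13 CXC ligands, 10 CC receptors and 7 CXC receptors, so 37 ligands and 17 receptors. The choice used gene symbols only. Cx3cl1, Xcl1 and the atypical receptors under other names fell outside it, and Ackr3 fell inside it because the table lists it as Cxcr7.

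Liver poly(A) RNA came from 9 C57BL/6 mice that started a high-fat diet (HFD) at 6 to 8 weeks of age and stayed on it for 16 weeks. Each of the 3 groups had 3 mice. The WT group carried the floxed gene of protease-activated receptor 2 (PAR2fl/fl), a receptor that coagulation proteases cleave, and the dHep group lacked it in hepatocytes (PAR2dHep). The third group carried the label PAR2 KO, a deletion in the whole body. The labels name no promoter driving the hepatocyte deletion, no mice with the Cre but without the floxed gene, and no littermates of the whole-body line. The same floxed livers served as the controls of both comparisons, so the differences of dHep and KO from WT share their WT libraries. All values here describe livers under the HFD.

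F2rl1, which encodes PAR2, had 17, 27 and 28 reads in WT replicates 1 to 3, 2, 8 and 0 in dHep, and 71, 103 and 76 in the livers labelled KO. Its level therefore fell in dHep by 2.73 ± 0.66 on the log2 scale (SE, adjusted p = 0.0164) and was 2.22 ± 0.51 higher in the livers labelled KO (adjusted p = 0.00735). The F2rl1 call in dHep was lost without WT replicate 2 or 3 or dHep replicate 1 (−2.63 to −2.32, adjusted p = 0.0505 to 0.0620), and the difference was −4.40 without dHep replicate 2. The count covers the whole gene and does not show which exons were read, and the KO libraries are called "labelled KO" throughout. Of the cell type marker lists, the 8 hepatocyte markers had the highest sum in every library, between 113267 and 174799 CPM (read counts scaled to a library of 1000000 reads). Reads assigned to genes came to between 18683660 and 30509242 per library. A list of pancreas, muscle and intestine genes summed to 566.7 CPM in WT replicate 1 and 1908 CPM in dHep replicate 2, against 294.0 to 379.8 CPM in the other 7 libraries. WT replicate 1 and dHep replicate 2, with the highest sums, are called the libraries that stand apart, and calls of named genes that ended without either or both are given beside them. KO replicate 1 stood apart on 1 gene of this list, Vil1, a gene of intestinal epithelium, at 39.3 CPM against at most 1.28 CPM in the other libraries. Calls that ended without it are given likewise. Adjusted p values are from edgeR's quasi-likelihood test with Benjamini-Hochberg adjustment over 13141 genes. A gene passed the test, or was called, where its adjusted p was under 0.05. These p values set a difference against the spread between mice within groups, which the fit estimates from all 3 groups together. An exact two-sided permutation test of 3 libraries against 3 cannot go below 0.1.

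Chemokines are small secreted proteins that bind G protein-coupled receptors on leukocytes and steer the cells along gradients. The CC and CXC classes are named for the spacing of their first cysteines. In the liver under metabolic stress, hepatocytes, Kupffer cells, endothelium and stellate cells can all produce them. CCL2 acting on CCR2 draws monocytes from blood, CXCL9 and CXCL10 acting on CXCR3 draw T cells and NK cells, and CXCL1 and CXCL2 acting on CXCR2 draw neutrophils. Transcription of many of the inducible ligands is known to depend on NF-kB, and that of CXCL9 and CXCL10 also on interferon.

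Promoter sequence is printed for 4 ligands because they moved in opposite directions in dHep: Cxcl9 and Cxcl10 fell, and Cxcl1 and Cxcl12 rose. Each line gives the 250 bases before the RefSeq start site, on the gene's own strand, from GRCm38.p6. The windows are chr5:92328080-92328329 (minus strand), chr5:92348890-92349139 (minus strand), chr5:90890995-90891244 (plus strand) and chr6:117168285-117168534 (plus strand). Capitals mark matches, on either strand, to a loose form of the NF-kB site (GGG, 5 bases of any kind, CC) and to a loose form of the interferon response element (GAAA, 2 bases of any kind, GAAA).
Cxcl9: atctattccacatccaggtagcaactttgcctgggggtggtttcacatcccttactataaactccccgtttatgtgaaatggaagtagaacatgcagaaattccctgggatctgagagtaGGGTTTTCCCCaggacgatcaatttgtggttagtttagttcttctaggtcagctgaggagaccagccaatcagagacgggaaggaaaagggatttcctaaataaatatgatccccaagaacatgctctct
Cxcl10: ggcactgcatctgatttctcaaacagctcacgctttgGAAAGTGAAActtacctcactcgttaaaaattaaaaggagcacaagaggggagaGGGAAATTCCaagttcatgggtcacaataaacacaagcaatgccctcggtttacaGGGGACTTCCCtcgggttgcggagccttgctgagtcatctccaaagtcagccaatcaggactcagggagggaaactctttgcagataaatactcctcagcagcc
Cxcl1: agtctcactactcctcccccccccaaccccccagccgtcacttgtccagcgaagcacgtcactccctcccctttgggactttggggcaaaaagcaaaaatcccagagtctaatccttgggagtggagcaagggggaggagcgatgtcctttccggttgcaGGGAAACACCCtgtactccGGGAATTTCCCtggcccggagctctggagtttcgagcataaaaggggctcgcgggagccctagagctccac
Cxcl12: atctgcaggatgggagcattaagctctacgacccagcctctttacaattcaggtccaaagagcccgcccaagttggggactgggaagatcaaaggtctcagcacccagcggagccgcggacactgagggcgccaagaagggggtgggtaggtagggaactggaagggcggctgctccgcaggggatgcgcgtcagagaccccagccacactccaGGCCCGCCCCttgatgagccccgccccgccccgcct

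The capitals in Cxcl9 are an NF-kB-type match 130 to 120 bases before the start. Cxcl10 held an interferon-type match 213 to 204 bases before the start and NF-kB-type matches at 159 to 150 and at 104 to 94 bases. In Cxcl1, NF-kB-type matches lay 90 to 80 and 71 to 61 bases before the start, and in Cxcl12 a match in GC-rich sequence lay 36 to 27 bases before it. The NF-kB-type pattern is common. It occurred in 26 of 45 windows of 300 bases (250 before to 50 after the start) that belonged to 38 of the 54 genes, or 57.8%, against 50.8% of 32817 windows of all genes. The interferon-type pattern occurred in 3 of the 45 windows, or 6.67%, against 3.43% of all windows. Among the printed ligands, those that fell and those that rose both held the NF-kB-type letters. This does not extend to every ligand that fell in dHep. The windows of Ccl3 and Cxcl14 held 0 NF-kB-type matches and that of Ccl22 held 2, while Ccl2, Ccl4, Ccl5 and Ccl7 had no window.

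Of the 54 genes, 31 had enough reads to be tested: 21 ligands and 10 receptors. Among the 23 others, 8 had no read in any library (Ccl1, Ccl21a, Ccl21b, Ccl21c, Ccl26, Ccl27b, Ccr8 and Cxcl15). For Ccl1, Ccl26, Ccr8 and Cxcl15 this allows a level of up to 0.0137 CPM over the 9 libraries (3 reads; counting error only). Ccl21a, Ccl21b and Ccl27b share 71.6%, 100% and 98.1% of their 50-base stretches with near-identical copies, and these genes and Ccl21c overlap others on the same strand, so their reads may not have been assigned and their 0 gives no such limit. The other 15 had 2 to 64 reads in total. They include Cxcr2, the neutrophil receptor for Cxcl1 and Cxcl2, with 64 reads, and Ccr3, the eosinophil receptor for Ccl24, with 60. Ccl8, a further ligand of monocytes, had 7, 2 and 10 reads in WT and 3 reads or fewer per group in dHep and in the livers labelled KO; it was not tested.

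Levels between genes were compared as CPM per kilobase of gene length, with library sizes scaled by TMM (trimmed mean of M values). Cxcl12, the constitutive ligand that holds CXCR4-bearing cells, had the highest mean over the 9 libraries at 41.8 CPM per kb. Ccl9 followed at 14.4, then Cxcl1 at 7.94, Ccl6 at 6.83, Cxcl9 at 6.40, Cxcl10 at 5.73 and Cxcl16 at 3.60 CPM per kb. Receptors were lower, for example Ccr2 at 1.20 and Cxcr4 at 0.625 CPM per kb. Cxcl12 alone gave 53.7% to 59.9% of the reads of the 54 genes in WT libraries, 70.2% to 80.2% in dHep and 73.3% to 78.7% in the livers labelled KO. All 54 genes summed to 411.6 to 468.5 CPM in WT, 486.3 to 601.5 CPM in dHep and 287.6 to 338.2 CPM in the livers labelled KO. With Cxcl12 included, the sum was thus highest in dHep. Without Cxcl12, the genes summed to 165.3 to 208.5 CPM in WT, 107.1 to 148.8 CPM in dHep and 72.00 to 76.86 CPM in the livers labelled KO. The ranges of the 3 groups did not overlap in either sum.

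**Figure D1:**
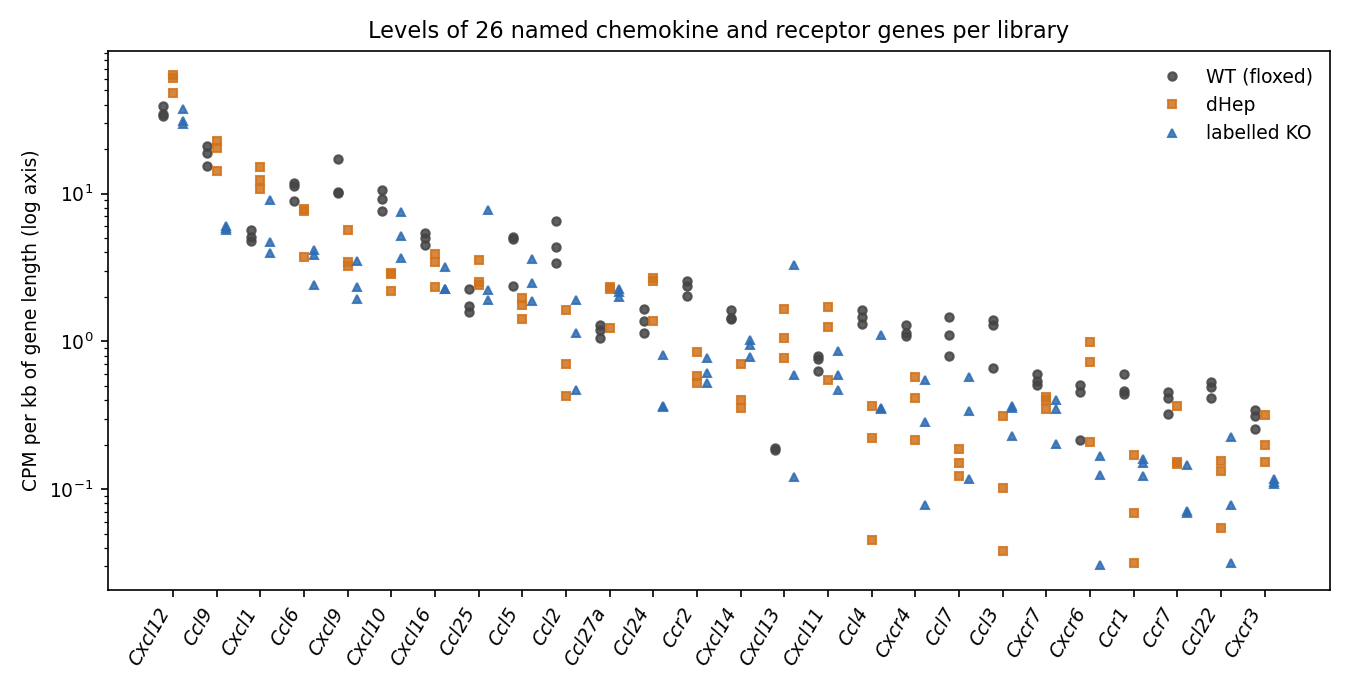
Level of 26 named genes in each library, as CPM per kb of gene length on a log axis, ordered by the mean over the 9 libraries. Circles are WT, squares dHep and triangles the libraries labelled KO; the 0 of Cxcl13 in WT replicate 1 cannot be drawn on a log axis. Cxcl12 lies highest in every library, and most circles lie above the squares and triangles of the same gene.

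In livers with the hepatocyte deletion, 12 of the 31 tested genes fell against WT and 2 rose. Among the genes that fell were the monocyte ligands Ccl2 and Ccl7, the macrophage inflammatory proteins Ccl3 and Ccl4, Ccl5, Ccl22, Cxcl9, Cxcl10 and Cxcl14, and the receptors Ccr1 and Ccr2. The fold size was 2.43 for Ccl5 and 7.93 for Ccl3. Cxcl12 rose 1.599-fold and Cxcl1 2.46-fold. Among all tested genes, 11.9% fell and 12.4% rose in this comparison, against 38.7% and 6.45% of the chemokine and receptor genes. The median log2 fold change was −0.90 over the 31 genes and 0.02 over all genes. By class, 6 of 12 tested CC ligands, 3 of 5 CC receptors and 3 of 9 CXC ligands fell, and 0 of 5 CXC receptors passed the test in edgeR. At an unadjusted p under 0.05 edgeR had 1 of the CXC receptors, and the Wald test of DESeq2 called 1, Cxcr4. The count of CC ligands that fell was 3 without WT replicate 3. In either direction 24.3% of all genes passed. The number that rose was 1 without WT replicate 2 or 3 and 4 without dHep replicate 2.

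Against WT, 16 of the 31 genes fell in the livers labelled KO and 2 rose. Among all tested genes, 22.1% fell and 20.9% rose, against 51.6% and 6.45% of the chemokine and receptor genes. The median log2 fold change was −1.51 over the 31 genes and −0.01 over all genes. The falls covered 7 of 12 CC ligands, 4 of 5 CC receptors, 3 of 9 CXC ligands and 2 of 5 CXC receptors. The count of CC ligands was 3 without WT replicate 3, KO replicate 1 or KO replicate 3. That of CXC receptors was 0 without WT replicate 2 or KO replicate 3, 1 without WT replicate 3 or KO replicate 1, and 3 without dHep replicate 3. Fold sizes ran from 1.68 for Cxcl10 to 4.85 for Cxcl9, and the rises were Ccl27a and Cxcl13. In either direction 43.0% of all genes passed. The number that fell was 9 without KO replicate 3 and 10 without WT replicate 2, WT replicate 3 or KO replicate 1. No rise passed when any 1 of the WT replicates or KO replicate 2 was left out, and 1 passed without both libraries that stand apart.

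Between the 2 deletion groups, 6 genes were lower in the livers labelled KO than in dHep (Ccl9, Ccl24, Cxcl1, Cxcl12 and Cxcr6 among them) and 1 was higher (Cxcl10). Among all genes, 5.39% were lower and 4.23% higher, against 19.4% and 3.23% of the 31, and 9.62% of all genes passed in either direction. The median log2 difference was −0.27 over the 31 genes and −0.02 over all genes. The count of lower genes was 2 in the fit of these 2 groups alone, 2 without both libraries that stand apart and 2 without KO replicate 3. The count of higher genes was 0 in these 3 fits and without any 1 of the WT replicates, dHep replicate 2 or KO replicate 2, and 2 without dHep replicate 3.

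In bulk liver, fewer cells of a type and less RNA per cell cannot be told apart. Markers of monocytes and macrophages moved with these results: the 12 genes of that list summed to 440.5 to 562.5 CPM in WT, 160.9 to 244.6 CPM in dHep and 170.5 to 228.5 CPM in the livers labelled KO. Of these 12 markers, 8 fell in dHep (66.7%, against 11.9% of all genes) and 10 in the livers labelled KO (83.3%, against 22.1%), and none of the 12 was without reads. With 1 library left out, the count was 6 to 11 in dHep and 10 or 11 in the livers labelled KO. The sum includes Spp1, whose levels are given below with the cholangiocyte markers. Markers of resident Kupffer cells summed to 669.3 to 681.8 CPM in WT, 626.3 to 853.9 CPM in dHep and 719.3 to 909.1 CPM in the livers labelled KO. That sum hides unlike members: C6 averaged 80.3 CPM in WT, 196.3 in dHep and 484.6 in the livers labelled KO, while 6 of the 8 had negative differences from WT in the livers labelled KO, with a median of −0.76. Against dHep the median there was −1.18, and 3 of the 8 were lower (37.5%, against 5.39% of all genes). That count was 0 to 5 with 1 library left out. The part of these cells in the chemokine results was not tested.

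**Figure D2:**
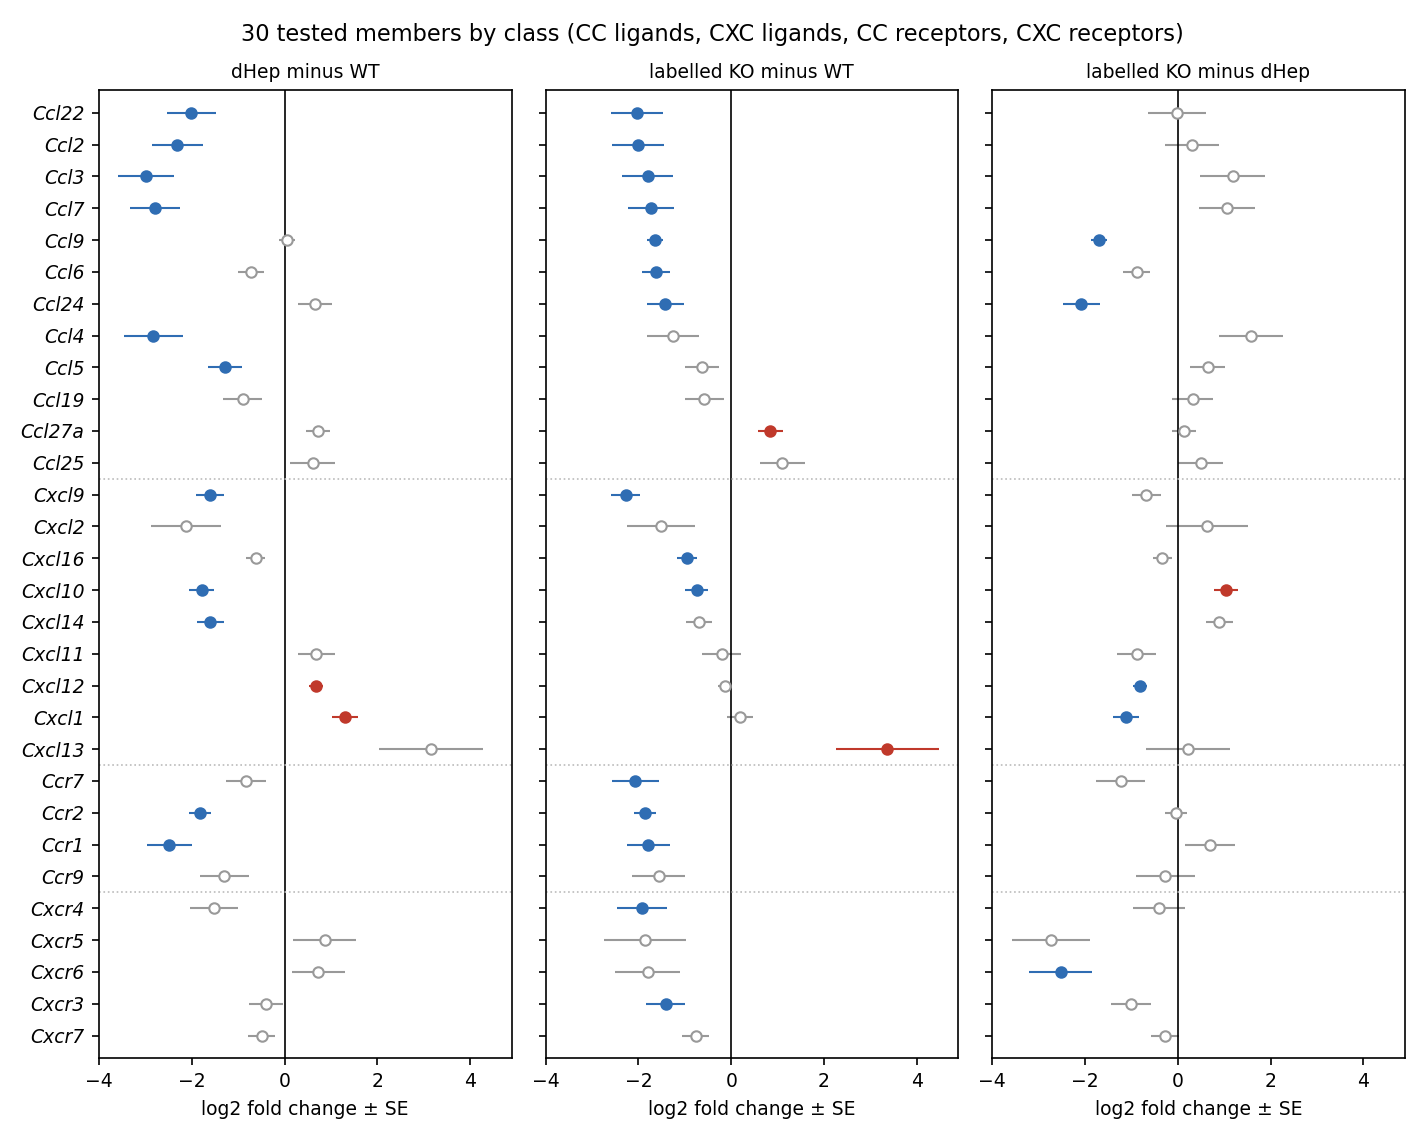
Log2 fold change with its SE for 30 tested genes in the 3 comparisons, by class; filled symbols have an adjusted p under 0.05 (blue lower, red higher) and open grey symbols do not. In dHep against WT 11 symbols are filled blue and 2 red, in labelled KO against WT 15 and 2, and in labelled KO against dHep 5 and 1.

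Ccl2 and Ccl7 encode the monocyte chemoattractants MCP-1 and MCP-3, and Ccr2 their receptor. Ccl2 was 2.74, 3.48 and 5.28 CPM in WT replicates 1 to 3, 1.32, 0.562 and 0.343 CPM in dHep, and 0.376, 1.54 and 0.923 CPM in the livers labelled KO. Every WT library lay above the other 6. Ccl2 fell by 2.31 ± 0.55 on the log2 scale in dHep (adjusted p = 0.0158) and by 2.01 ± 0.55 in the livers labelled KO (adjusted p = 0.0164). Ccl7 was 0.639, 0.889 and 1.18 CPM in WT, 0.150, 0.120 and 0.0981 CPM in dHep, and 0.0939, 0.271 and 0.462 CPM in the livers labelled KO, again without overlap with WT. It fell by 2.79 ± 0.53 in dHep (adjusted p = 0.00616) and by 1.73 ± 0.50 in the livers labelled KO (adjusted p = 0.0196). Ccr2 was far better measured, at 7.25, 9.19 and 8.45 CPM in WT, 2.099, 3.05 and 1.86 CPM in dHep, and 1.88, 2.76 and 2.19 CPM in the livers labelled KO. The receptor fell by 1.82 ± 0.23 in dHep (adjusted p = 0.00113) and by 1.86 ± 0.23 in the livers labelled KO (adjusted p = 0.000506), and both calls passed under every alternative. The Ccl2 call in dHep was lost without WT replicate 3 (−2.02, adjusted p = 0.0709), and the difference was −3.05 without dHep replicate 1. Against WT it was lost in the livers labelled KO without WT replicate 3 (−1.71, adjusted p = 0.0672) or KO replicate 3 (−1.99, adjusted p = 0.0557). The Ccl7 call there was lost without WT replicate 2 or 3 or KO replicate 1 or 2 (−1.74 to −1.29, adjusted p = 0.0540 to 0.0864).

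Ccl3 and Ccl4 encode the macrophage inflammatory proteins MIP-1 alpha and beta, and Ccl5 encodes RANTES. Ccr1 encodes a receptor that binds CCL3 and CCL5. Ccl3 was 1.01, 0.519 and 1.11 CPM in WT, 0.0300, 0.0803 and 0.245 CPM in dHep, and 0.282, 0.181 and 0.289 CPM in the livers labelled KO. It fell by 2.99 ± 0.61 in dHep (adjusted p = 0.00844), where only 8 reads remained over 3 libraries, and by 1.80 ± 0.56 in the livers labelled KO (adjusted p = 0.0265). Ccl4 was 0.864, 1.07 and 0.962 CPM in WT, 0.0300, 0.241 and 0.147 CPM in dHep, and 0.235, 0.723 and 0.231 CPM in the livers labelled KO. Its WT libraries lay above all others. It fell by 2.83 ± 0.63 in dHep (adjusted p = 0.0122), and its difference in the livers labelled KO was −1.25 ± 0.56 (adjusted p = 0.0969). Ccl5, a product of T cells and NK cells as well as macrophages, was 2.63, 1.26 and 2.71 CPM in WT, 0.749, 1.04 and 0.932 CPM in dHep, and 1.93, 0.995 and 1.33 CPM in the livers labelled KO. It fell by 1.28 ± 0.37 in dHep (adjusted p = 0.0327), and in the livers labelled KO, whose range overlapped that of WT, the difference was −0.63 ± 0.36 (adjusted p = 0.179).

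Ccr1 fell in both groups. It was 1.31, 1.70 and 1.25 CPM in WT, 0.0899, 0.482 and 0.196 CPM in dHep, and 0.423, 0.452 and 0.346 CPM in the livers labelled KO. It fell by 2.49 ± 0.49 in dHep (adjusted p = 0.00734) and by 1.78 ± 0.47 in the livers labelled KO (adjusted p = 0.0140). The Ccr1 call in the livers labelled KO was lost without WT replicate 2 (−1.64, adjusted p = 0.0581) or KO replicate 3 (−1.69, adjusted p = 0.0549), and its difference in dHep was −3.36 without dHep replicate 2.

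Among these ligands, the Ccl5 call in dHep was lost without WT replicate 1 or 3, dHep replicate 1 or 3 or KO replicate 3 (−1.30 to −1.10, adjusted p = 0.0511 to 0.124). It was also lost without both libraries that stand apart (−1.25, adjusted p = 0.0975). The Ccl4 call in dHep was lost without WT replicate 2 (−2.74, adjusted p = 0.0506), and its difference was −3.56 without dHep replicate 2. Ccl4 in the livers labelled KO passed without KO replicate 2 (−2.03, adjusted p = 0.0395) and with the 2 groups alone (−1.24, adjusted p = 0.0400). Ccl3 passed in dHep under every alternative that gave a value, with a difference of −3.95 without dHep replicate 3. In the livers labelled KO it was lost without WT replicate 1 or 3 or any 1 of the KO replicates (−1.91 to −1.61, adjusted p = 0.0600 to 0.103), and without both libraries that stand apart (−1.69, adjusted p = 0.0717).

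Cxcl9, Cxcl10 and Cxcl11, the interferon-inducible ligands of CXCR3 whose promoters are shown above for the first pair, did not move as a block. Cxcl9 was 29.3, 29.6 and 49.9 CPM in WT, 9.35, 16.6 and 9.96 CPM in dHep, and 5.64, 6.74 and 10.2 CPM in the livers labelled KO. It fell by 1.602 ± 0.31 in dHep (adjusted p = 0.00639) and by 2.28 ± 0.32 in the livers labelled KO (adjusted p = 0.000776), under every alternative. Cxcl10 was 10.1, 8.37 and 11.6 CPM in WT, 2.40, 3.13 and 3.19 CPM in dHep, and 4.04, 5.70 and 8.25 CPM in the livers labelled KO. It was lowest in dHep, where it fell by 1.79 ± 0.26 (adjusted p = 0.00209), and it fell by 0.75 ± 0.25 in the livers labelled KO (adjusted p = 0.0371). Cxcl10 was thus higher in the livers labelled KO than in dHep, by 1.04 ± 0.26 (adjusted p = 0.0371). Cxcl11 was 1.01, 1.22 and 1.28 CPM in WT, 2.76, 0.883 and 2.01 CPM in dHep, and 0.752, 0.949 and 1.39 CPM in the livers labelled KO. Its differences from WT were 0.69 ± 0.40 (adjusted p = 0.239) in dHep and −0.20 ± 0.42 (adjusted p = 0.725) in the livers labelled KO.

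The receptor Cxcr3, carried by activated T cells and NK cells, had few reads, with 0.413, 0.556 and 0.499 CPM in WT, 0.510, 0.321 and 0.245 CPM in dHep, and 0.188, 0.181 and 0.173 CPM in the livers labelled KO. It fell by 1.41 ± 0.42 in the livers labelled KO (adjusted p = 0.0229) and differed by −0.41 ± 0.37 in dHep (adjusted p = 0.452). Lymphocyte markers summed to 11.4 to 12.8 CPM in WT, 9.47 to 16.9 CPM in dHep and 8.37 to 14.7 CPM in the livers labelled KO, overlapping ranges. Of 13 tested, 1 fell in dHep (7.69%, against 11.9% of all genes; 0 to 3 with 1 library left out) and 4 in the livers labelled KO (30.8%, against 22.1%; 2 without WT replicate 2 or 3 or KO replicate 2 or 3). In each group 1 of the 13 rose (7.69%, against 12.4% of all genes in dHep and 20.9% in the livers labelled KO). That count stayed at 1 with any 1 library left out. The part of these cells in the result was not tested. The Cxcr3 call was lost with the Wald test of DESeq2 (adjusted p = 0.0836), with no filter on low counts (adjusted p = 0.0512), and without WT replicate 2 or 3 or any 1 of the KO replicates (−1.42 to −1.31, adjusted p = 0.0597 to 0.0836). The Cxcl10 call in the livers labelled KO was lost without any 1 of the WT replicates, KO replicate 1 or KO replicate 2 (−0.86 to −0.51, adjusted p = 0.0516 to 0.133), and without both libraries that stand apart (−0.74, adjusted p = 0.0843). Its difference between the deletion groups was lost without any 1 of the WT replicates, dHep replicate 1 or 2, or KO replicate 2 or 3 (0.75 to 1.11, adjusted p = 0.0611 to 0.120). It was also lost with these 2 groups alone (1.04, adjusted p = 0.106) and without both libraries that stand apart (1.11, adjusted p = 0.106). Cxcl11 in dHep passed without dHep replicate 2 (1.03, adjusted p = 0.0310).

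Ccl6 and Ccl9, rodent CC ligands that act on CCR1, were lower in the livers labelled KO. Ccl9 was 46.2, 62.8 and 56.2 CPM in WT and 67.9, 60.9 and 42.8 CPM in dHep, ranges that overlapped. In the livers labelled KO it was 17.2, 17.7 and 18.1 CPM, below both. Its difference was 0.06 ± 0.17 in dHep (adjusted p = 0.837) and it fell by 1.64 ± 0.18 in the livers labelled KO (adjusted p = 0.000291). The difference between the deletion groups was −1.70 ± 0.18 (adjusted p = 0.000972), the 1 call of that comparison that passed under every alternative. Ccl6 was 12.8, 16.9 and 16.2 CPM in WT, 11.2, 10.9 and 5.35 CPM in dHep, and 3.48, 5.92 and 5.54 CPM in the livers labelled KO. It fell by 1.62 ± 0.30 in the livers labelled KO (adjusted p = 0.00257), and its difference in dHep was −0.73 ± 0.28 (adjusted p = 0.0898; adjusted p = 0.0492 by the Wald test of DESeq2). Between the deletion groups Ccl6 differed by −0.89 ± 0.29 (adjusted p = 0.0860), and it passed with DESeq2 (−0.88, adjusted p = 0.0296) and without dHep replicate 3 (−1.15, adjusted p = 0.0121).

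Ccl24 encodes eotaxin-2, an attractant of eosinophils that mouse macrophages can make. It was 2.14, 1.78 and 1.46 CPM in WT, 1.77, 3.45 and 3.29 CPM in dHep, and 0.470, 1.04 and 0.462 CPM in the livers labelled KO. The libraries labelled KO lay below the other 6. Ccl24 fell there by 1.43 ± 0.40 against WT (adjusted p = 0.0177) and was lower by 2.08 ± 0.40 than in dHep (adjusted p = 0.0143). The call against WT was lost without WT replicate 1 (−1.28, adjusted p = 0.0580), KO replicate 1 (−1.20, adjusted p = 0.0583) or KO replicate 3 (−1.24, adjusted p = 0.0647), and without both libraries that stand apart (−1.28, adjusted p = 0.0555). The call against dHep was lost without KO replicate 3 (−1.89, adjusted p = 0.0654), without both libraries that stand apart (−1.90, adjusted p = 0.0573) and with the 2 groups alone in the fit (−2.08, adjusted p = 0.0523).

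Cxcl1 and Cxcl12 were the ligands that rose in dHep. Cxcl1, a neutrophil attractant that hepatocytes can release in injury, was 4.81, 4.56 and 5.38 CPM in WT, 14.4, 10.2 and 11.7 CPM in dHep, and 8.55, 3.75 and 4.44 CPM in the livers labelled KO. All dHep libraries lay above the other 6. Cxcl1 rose by 1.30 ± 0.28 in dHep (adjusted p = 0.0104), differed by 0.18 ± 0.28 from WT in the livers labelled KO (adjusted p = 0.621) and was 1.12 ± 0.28 lower there than in dHep (adjusted p = 0.0379). Cxcl2, the second neutrophil ligand of the same cluster, was at most 0.704 CPM in any library, and its differences of −2.13 ± 0.76 in dHep (adjusted p = 0.0675) and −1.51 ± 0.74 in the livers labelled KO (adjusted p = 0.123) did not pass. Neutrophil markers summed to 6.20 to 10.2 CPM in WT, 5.89 to 12.02 CPM in dHep and 2.82 to 3.44 CPM in the livers labelled KO; none of the 7 was without reads, and their part in the result was not tested. The Cxcl1 call in dHep was lost without WT replicate 2 (1.25, adjusted p = 0.0521). Its call between the deletion groups was lost without any 1 of the WT replicates, dHep replicate 1 or 2, or KO replicate 2 or 3 (−1.22 to −0.89, adjusted p = 0.0513 to 0.136). It was also lost with these 2 groups alone (−1.12, adjusted p = 0.0999) and without both libraries that stand apart (−1.22, adjusted p = 0.0782).

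Cxcl12 encodes SDF-1, the ligand of CXCR4 and of the scavenging receptor ACKR3, which the table lists as Cxcr7. Cxcl12 was 246, 281 and 242 CPM in WT, 341, 453 and 435 CPM in dHep, and 266, 211 and 221 CPM in the livers labelled KO, with all dHep libraries above the rest. It rose by 0.68 ± 0.14 in dHep (adjusted p = 0.00925), and in the livers labelled KO the difference was −0.14 ± 0.14 (adjusted p = 0.447). Cxcl12 was lower by 0.82 ± 0.14 in the livers labelled KO than in dHep (adjusted p = 0.0103). Cxcr4 was 2.07, 2.33 and 1.96 CPM in WT, 0.749, 1.04 and 0.392 CPM in dHep, and 0.141, 0.995 and 0.519 CPM in the livers labelled KO, with every WT library above the others. It fell by 1.92 ± 0.55 in the livers labelled KO (adjusted p = 0.0188) and differed by −1.52 ± 0.52 in dHep (adjusted p = 0.0602). Cxcr7 ran from 0.519 to 1.54 CPM, and its differences of −0.49 ± 0.29 in dHep (adjusted p = 0.244) and −0.77 ± 0.30 in the livers labelled KO (adjusted p = 0.0621) did not pass; the second passed with the 2 groups alone (−0.76, adjusted p = 0.0487).

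The Cxcl12 call in dHep was lost without WT replicate 3 (0.63, adjusted p = 0.0508) and without both libraries that stand apart (0.57, adjusted p = 0.0571). Its call between the deletion groups was lost without KO replicate 3 (−0.78, adjusted p = 0.0542) and without both libraries that stand apart (−0.74, adjusted p = 0.0503). The Cxcr4 call in the livers labelled KO was lost without WT replicate 2 (−1.85, adjusted p = 0.0601) or KO replicate 3 (−1.88, adjusted p = 0.0622), and the difference was −2.71 without KO replicate 2. Cxcr4 in dHep passed with DESeq2 (adjusted p = 0.0224), with the 2 groups alone (adjusted p = 0.0256) and without dHep replicate 2 (−1.84, adjusted p = 0.0402), KO replicate 1 (−1.51, adjusted p = 0.0223) or KO replicate 2 (−1.52, adjusted p = 0.0431).

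**Figure D3:**
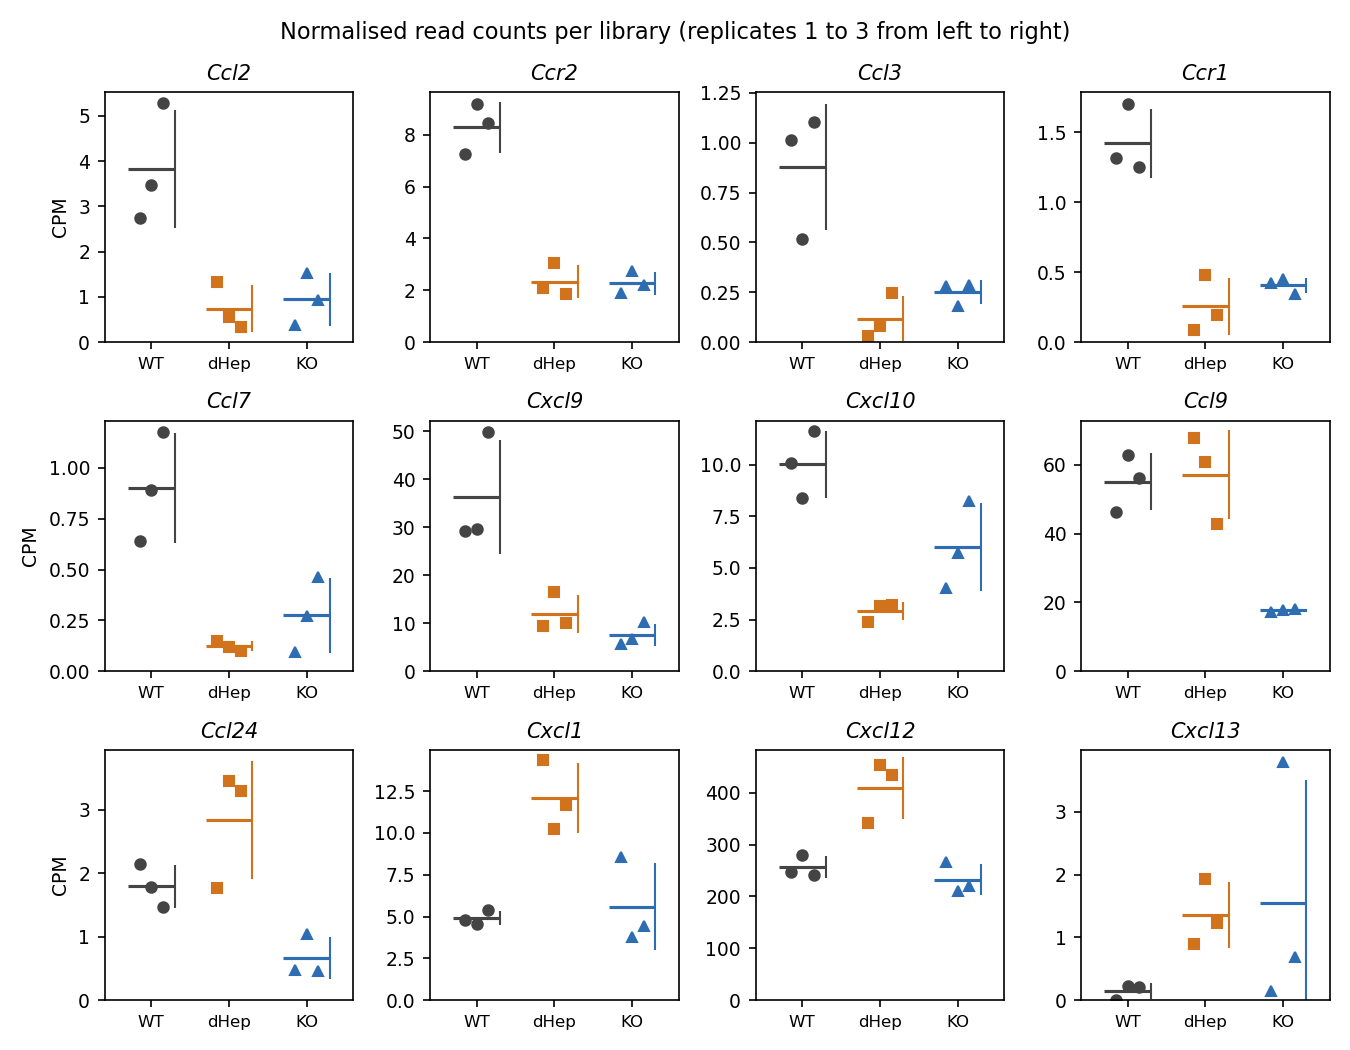
Level of 12 genes in each library in CPM, with replicates 1 to 3 from left to right in each group, a horizontal line at the group mean and a vertical line of 1 SD on either side of it, drawn down to 0 at most. Ccl2, Ccr2, Ccl3, Ccr1, Cxcl9 and Cxcl10 are highest in WT, Ccl9 and Ccl24 are lowest in the livers labelled KO, Cxcl1 and Cxcl12 are highest in dHep, and a single library labelled KO carries the highest Cxcl13 value.

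Ligands and receptors that place lymphocytes and dendritic cells in tissue were low. Ccl19, the ligand of CCR7, the gut-homing receptor Ccr9 and Cxcr5, the receptor for CXCL13 on B cells, reached at most 1.205 CPM in any library and passed in no comparison; Ccl19 shares 52.0% of its 50-base stretches with near-identical copies. Cxcl13, the B cell attractant, was 0, 0.222 and 0.214 CPM in WT, 0.899, 1.93 and 1.23 CPM in dHep, and 0.141, 3.798 and 0.693 CPM in the livers labelled KO. It passed as higher in the livers labelled KO (3.37 ± 1.12, adjusted p = 0.0355), although KO replicate 1 lay within the WT range. In dHep all 3 libraries lay above WT, and the difference of 3.16 ± 1.12 did not pass (adjusted p = 0.0673). Without KO replicate 2 the difference of the libraries labelled KO was 1.44 (adjusted p = 0.292). It was also lost without any 1 of the WT replicates (2.81 to 3.78, adjusted p = 0.0792 to 0.0936). Without both libraries that stand apart it was 2.81 (adjusted p = 0.0942). In dHep it was 2.24 without both (adjusted p = 0.232), and it passed with DESeq2 (3.22, adjusted p = 0.00890), with the 2 groups alone (3.18, adjusted p = 0.0216) and without KO replicate 1 (3.16, adjusted p = 0.0326) or KO replicate 2 (3.16, adjusted p = 0.0295).

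Ccl22, a dendritic cell and macrophage product that acts on CCR4, was 0.751, 0.963 and 0.891 CPM in WT, 0.240, 0.281 and 0.0981 CPM in dHep, and 0.141, 0.407 and 0.0577 CPM in the livers labelled KO. WT lay above the other 6 libraries, and Ccl22 fell by 2.01 ± 0.54 in dHep (adjusted p = 0.0246) and by 2.03 ± 0.56 in the livers labelled KO (adjusted p = 0.0164). The call in dHep was lost without any 1 of the WT replicates, dHep replicate 1 or dHep replicate 3 (−2.12 to −1.73, adjusted p = 0.0523 to 0.0919). The other was lost without WT replicate 2 or 3 or KO replicate 1 or 3 (−2.01 to −1.64, adjusted p = 0.0532 to 0.0587), and the difference was −3.02 without KO replicate 2. Ccr7, which guides dendritic cells and naive T cells, was 0.902, 0.815 and 0.642 CPM in WT, 0.300, 0.723 and 0.294 CPM in dHep, and 0.141, 0.136 and 0.289 CPM in the livers labelled KO. It fell by 2.07 ± 0.50 in the livers labelled KO (adjusted p = 0.00938) under every alternative that gave a value, and the difference in dHep was −0.84 ± 0.43 (adjusted p = 0.188; without dHep replicate 2 it was −1.38, adjusted p = 0.0344).

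Cxcl16 encodes a membrane-bound ligand, and Cxcr6 its receptor on liver-resident T and NKT cells. Cxcl16 was 10.97, 12.3 and 13.3 CPM in WT, 8.42, 9.60 and 5.74 CPM in dHep, and 5.54, 7.82 and 5.54 CPM in the livers labelled KO. It fell by 0.95 ± 0.21 in the livers labelled KO (adjusted p = 0.00626) under every alternative, and the difference in dHep was −0.62 ± 0.21 (adjusted p = 0.0556). Cxcl16 in dHep passed with DESeq2 (adjusted p = 0.0303), without dHep replicate 2 (−0.77, adjusted p = 0.0275) and without both libraries that stand apart (−0.85, adjusted p = 0.0425). Cxcr6 was 0.864, 0.408 and 0.962 CPM in WT, 1.38, 1.89 and 0.392 CPM in dHep, and 0.235, 0.316 and 0.0577 CPM in the livers labelled KO. The libraries labelled KO lay below the others, and Cxcr6 was lower there than in dHep by 2.52 ± 0.68 (adjusted p = 0.0472). Its difference from WT there was −1.80 ± 0.70 (adjusted p = 0.0611), and it passed without dHep replicate 3 (−1.80, adjusted p = 0.0249), with DESeq2 (−1.83, adjusted p = 0.0367) and with the 2 groups alone (−1.79, adjusted p = 0.0230). The call between the deletion groups was lost with no filter on low counts (−2.53, adjusted p = 0.0568). It was also lost without any 1 of the libraries except dHep replicate 3 (−2.97 to −2.10, adjusted p = 0.0691 to 0.142), and without both libraries that stand apart (−2.10, adjusted p = 0.156).

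Cxcl14, an epithelial and stromal chemokine, was 2.59, 3.00 and 2.64 CPM in WT, 1.29, 0.643 and 0.736 CPM in dHep, and 1.74, 1.85 and 1.44 CPM in the livers labelled KO. The 3 ranges were separate. Cxcl14 fell by 1.599 ± 0.29 in dHep (adjusted p = 0.00534) under every alternative, and its difference in the livers labelled KO was −0.70 ± 0.28 (adjusted p = 0.0679). That difference passed without dHep replicate 1 (adjusted p = 0.0237) or dHep replicate 2 (adjusted p = 0.0402), and with the 2 groups alone (adjusted p = 0.0124). Between the deletion groups it was 0.89 ± 0.30 (adjusted p = 0.0849) and passed without dHep replicate 1 (1.29, adjusted p = 0.0181). Markers of stellate cells and fibroblasts summed to 609.2 to 685.6 CPM in WT, 307.7 to 488.7 CPM in dHep and 265.5 to 350.1 CPM in the livers labelled KO, with 4 and 7 of 9 lower (44.4% and 77.8%, against 11.9% and 22.1% of all genes). Their part in the result was not tested.

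Ccl27a, an epithelial ligand of CCR10, was 1.77, 1.56 and 1.89 CPM in WT, 3.42, 1.81 and 3.34 CPM in dHep, and 2.91, 3.30 and 3.17 CPM in the livers labelled KO. It rose by 0.85 ± 0.26 in the livers labelled KO (adjusted p = 0.0269), and in dHep, whose replicate 2 lay within the WT range, the difference was 0.71 ± 0.26 (adjusted p = 0.0740). Without dHep replicate 2 that difference was 0.96 (adjusted p = 0.00704), and without both libraries that stand apart 0.97 (adjusted p = 0.0256). The call in the livers labelled KO was lost without any 1 of the WT replicates or KO replicate 2 or 3 (0.77 to 0.91, adjusted p = 0.0610 to 0.0952). Ccl27a shares 45.0% of its 50-base stretches with near-identical copies, so how its reads were split is uncertain. It also overlaps Il11ra1 on the other strand. Ccl25, the intestinal and thymic ligand of CCR9, was 2.89, 2.00 and 2.21 CPM in WT, 4.50, 3.21 and 3.09 CPM in dHep, and 9.91, 2.85 and 2.42 CPM in the livers labelled KO. Neither difference passed (0.61 ± 0.48, adjusted p = 0.386; 1.10 ± 0.49, adjusted p = 0.0933). KO replicate 1, the library with the high Vil1 level, was the highest. Without it the Ccl25 difference from WT was 0.18 (adjusted p = 0.625), and the difference from dHep turned from 0.49 (adjusted p = 0.529) to −0.44 (adjusted p = 0.318). With it kept, the difference from WT passed without KO replicate 3 (1.43, adjusted p = 0.0448) and with DESeq2 (1.10, adjusted p = 0.0454).

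Most of the tested genes lie in a few gene clusters, and neighbours did not always move alike. On chromosome 11, Ccl2 and Ccl7 share the cluster at chr11:82035577-82179812 (mm10) and both fell in each comparison with WT. The other cluster, at chr11:83525779-83664683, holds Ccl5, Ccl9, Ccl6, Ccl3 and Ccl4. Its outer genes Ccl5, Ccl3 and Ccl4 fell in dHep, and the difference of Ccl9 was 0.06. Ccl9, Ccl6 and Ccl3 fell in the livers labelled KO. On chromosome 5, Cxcl1 at chr5:90759299-90905938 rose in dHep and its neighbour Cxcl2 had a difference of −2.13. The cluster at chr5:92321331-92363296 holds Cxcl9 and Cxcl10, which fell, beside Cxcl11, which did not pass. In the receptor cluster on chromosome 9, Ccr1 and Ccr2 fell in both comparisons with WT, while Cxcr6 had a difference of 0.72 in dHep (adjusted p = 0.385).

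**Figure D4:**
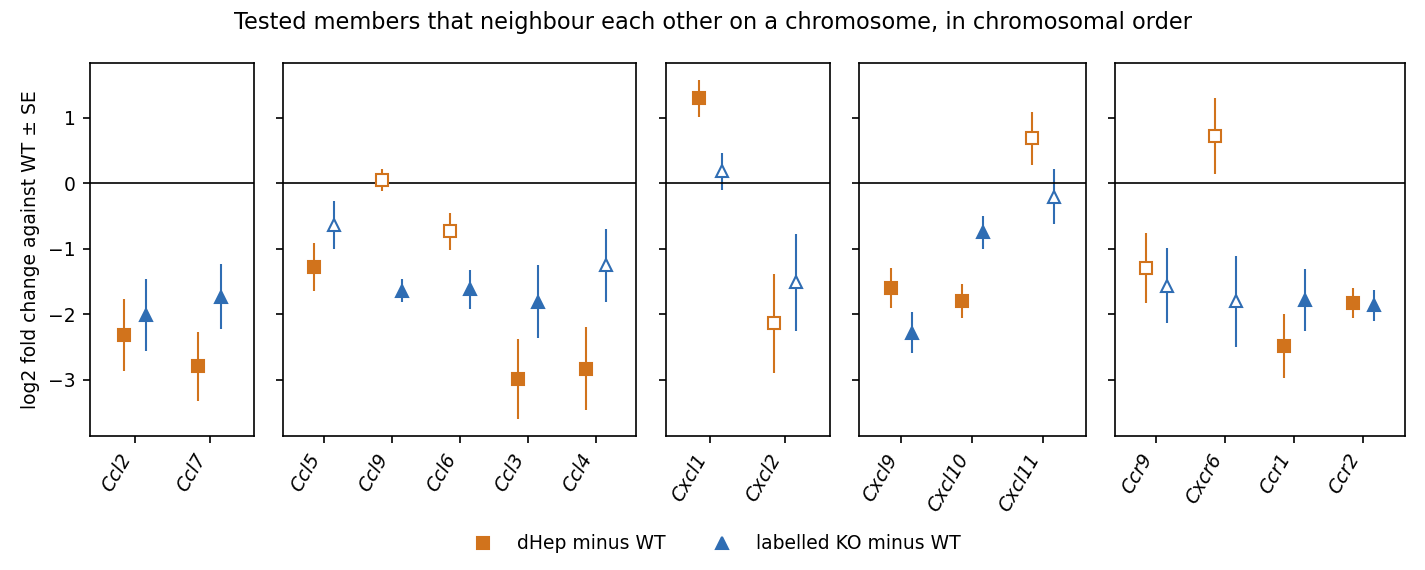
Log2 fold change against WT with its SE for tested genes that neighbour each other, in chromosomal order, 1 panel per cluster. Squares are dHep, triangles the libraries labelled KO, and filled symbols have an adjusted p under 0.05; Cxcl1 is filled above 0 in dHep, and every other filled symbol lies below 0.

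The list of other chemokine family and related genes holds the atypical receptors, the fractalkine and chemerin systems and the Cmtm genes. It also holds Xcl1, Xcr1, Pf4, Ppbp, Cklf, Mif and Dpp4. Of 17 tested, 2 fell and 2 rose in dHep, or 11.8% each, near the 11.9% and 12.4% of all genes. Against WT, 7 fell in the livers labelled KO (41.2%, against 22.1% of all genes; 4 without any 1 of the WT replicates or KO replicate 1 or 3) and 2 rose (11.8%, against 20.9%). Cx3cr1, the fractalkine receptor of monocytes, was 5.63, 5.45 and 5.81 CPM in WT, 0.959, 0.964 and 0.785 CPM in dHep, and 1.08, 1.09 and 0.693 CPM in the livers labelled KO. It fell by 2.63 ± 0.23 in dHep (adjusted p = 0.000210) and by 2.55 ± 0.23 in the livers labelled KO (adjusted p = 0.000171). Mif, a cytokine that can act on CXCR2 and CXCR4, rose by 0.78 ± 0.21 (adjusted p = 0.0260) and 0.95 ± 0.21 (adjusted p = 0.00641). The chemerin gene Rarres2 rose in dHep by 0.55 ± 0.17 (adjusted p = 0.0457), and its receptor Cmklr1 fell in the livers labelled KO by 1.93 ± 0.34 (adjusted p = 0.00209). The scavenging receptors Ackr2, listed as Ccbp2 (−1.30, adjusted p = 0.00644), and Ackr1, listed as Darc (−0.77, adjusted p = 0.0446), fell there too, with Ccrl2 (−0.98, adjusted p = 0.0347) and Cmtm7 (−0.67, adjusted p = 0.0403). Cmtm3 fell in dHep (−0.60, adjusted p = 0.0496) and in the livers labelled KO (−0.99, adjusted p = 0.00390). Cmtm6 rose in the livers labelled KO (0.42, adjusted p = 0.00753) and was higher there than in dHep (0.56, adjusted p = 0.0108), the 1 gene of this list that passed between the deletion groups; that call was lost without KO replicate 3 (0.53, adjusted p = 0.0530). In dHep, Mif did not pass without any 1 of the WT replicates or dHep replicate 3 (0.62 to 0.84, adjusted p = 0.0675 to 0.0916). Rarres2 did not pass without any 1 of the WT replicates, dHep replicate 3 or any 1 of the KO replicates (0.31 to 0.56, adjusted p = 0.0592 to 0.136), and Cmtm3 lost its call in dHep without any 1 library except KO replicate 2 (−0.68 to −0.50, adjusted p = 0.0504 to 0.183). In the livers labelled KO, Darc, Ccrl2 and Cmtm7 did not pass without any 1 of the WT replicates or KO replicate 1 or 3 (adjusted p = 0.0596 to 0.126). Without both libraries that stand apart, the calls of Mif (0.62, adjusted p = 0.126), Rarres2 (0.61, adjusted p = 0.0924) and Cmtm3 (−0.66, adjusted p = 0.0962) in dHep and of Darc (adjusted p = 0.104), Ccrl2 (adjusted p = 0.0577) and Cmtm7 (adjusted p = 0.0781) in the livers labelled KO were lost. DESeq2 did not call Darc (adjusted p = 0.0771) or Cmtm7 (adjusted p = 0.0635) there, and Rarres2 did not pass with the 2 groups alone (adjusted p = 0.0893). Without both libraries that stand apart, 3 of the 17 fell in dHep, with no rise, and 4 fell and 2 rose in the livers labelled KO.

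A further list holds genes of receptor signalling and leukocyte migration (G protein subunits, Rac activators, kinases, integrins and adhesion molecules). Of 29 tested, 16 fell (55.2%, against 11.9% of all genes) and 1 rose (3.45%, against 12.4%) in dHep, with a median log2 fold change of −0.87. Of the same 29, 23 fell in the livers labelled KO (79.3%, against 22.1% of all genes), with a median of −1.47. The count in dHep moved with single libraries, to 7 without WT replicate 3, 9 without dHep replicate 1, 10 without WT replicate 1, WT replicate 2 or dHep replicate 3, and 22 without dHep replicate 2. Against WT in the livers labelled KO it stayed between 21 and 25. In dHep the called genes with the smallest p were Rgs2, a brake on G protein signalling (−1.19 ± 0.20, adjusted p = 0.00394), the G protein subunit Gnb1 (−0.48 ± 0.08, adjusted p = 0.00447) and the endothelial selectin Sele (adjusted p = 0.00512). Sele had 69 reads in WT and 2 in dHep, a WT to dHep ratio of 33.2 with a 95% counting interval of 8.86 to 280.0. Dock8, an activator of Cdc42, was the gene that rose (0.44 ± 0.10, adjusted p = 0.0137). In the livers labelled KO the leading genes were Dock2, the Rac activator that leukocytes use in migration, and the exchange factor Vav1. Dock2 was 6.27, 6.41 and 7.13 CPM in WT, 2.25, 4.26 and 2.31 CPM in dHep, and 0.376, 0.814 and 0.693 CPM in the livers labelled KO, where it fell by 3.39 ± 0.34 (adjusted p = 0.000235). Vav1 fell there by 1.86 ± 0.19 (adjusted p = 0.000248). Between the deletion groups 6 of the 29 were lower in the livers labelled KO (20.7%, against 5.39% of all genes). They were led by Dock2 (−2.22, adjusted p = 0.00650), the kinase Ptk2b (−0.53, adjusted p = 0.00733) and Vav1 (−0.99, adjusted p = 0.0157). The count of lower genes was 2 without KO replicate 2, 3 without any 1 of the WT replicates, dHep replicate 2 or KO replicate 3, 12 without dHep replicate 3 and 2 without both libraries that stand apart. Vav1 did not pass there without KO replicate 2 (−0.94, adjusted p = 0.0631), without both libraries that stand apart (−0.83, adjusted p = 0.0663) or with the 2 groups alone (adjusted p = 0.0836), and Ptk2b did not pass with the 2 groups alone (−0.53, adjusted p = 0.0517). Dock8 lost its call in dHep without WT replicate 2 or 3 (0.35 to 0.46, adjusted p = 0.0524 to 0.0674).

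Inducers and targets of NF-kB and interferon signalling moved less uniformly. Of 16 tested, 4 fell in dHep (25.0%, against 11.9% of all genes), with a median of −0.49. Against WT, 7 fell in the livers labelled KO (43.8%, against 22.1%) and 2 rose (12.5%, against 20.9%), with a median of −0.51. In dHep the genes with the smallest p were Tnfaip3, the NF-kB inhibitor A20 (−1.18 ± 0.25, adjusted p = 0.00926), the NF-kB subunit Relb (−1.002 ± 0.24, adjusted p = 0.0152) and the innate receptor Tlr2 (−1.61 ± 0.38, adjusted p = 0.0155). In the livers labelled KO, Tlr4, the endotoxin receptor, fell by 2.72 ± 0.43 (adjusted p = 0.00134), Tnfaip3 by 1.503 ± 0.25 (adjusted p = 0.00173) and the inflammatory cytokine Il1b by 1.41 ± 0.36 (adjusted p = 0.0112). The NF-kB subunit Rela rose there, from 30.5, 29.9 and 31.4 CPM in WT to 48.4, 52.6 and 49.6 CPM (0.71 ± 0.09, adjusted p = 0.000635), and was higher than in dHep by 0.61 ± 0.09 (adjusted p = 0.00648). Stat2, which carries interferon signals, also rose there (0.46 ± 0.17, adjusted p = 0.0473), but did not pass without any 1 of the WT replicates or KO replicate 2 or 3 (0.38 to 0.50, adjusted p = 0.0843 to 0.155), nor without both libraries that stand apart (0.50, adjusted p = 0.0762), with no filter on low counts (adjusted p = 0.0601) or with a floor of 1 CPM in 3 or more libraries (adjusted p = 0.0510). Relb (−0.84, adjusted p = 0.0784) and Tlr2 (−1.46, adjusted p = 0.0681) did not pass in dHep without WT replicate 3. The number that fell in dHep was 1 without that library and 6 without dHep replicate 2, and in the livers labelled KO 3 without WT replicate 3.

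**Figure D5:**
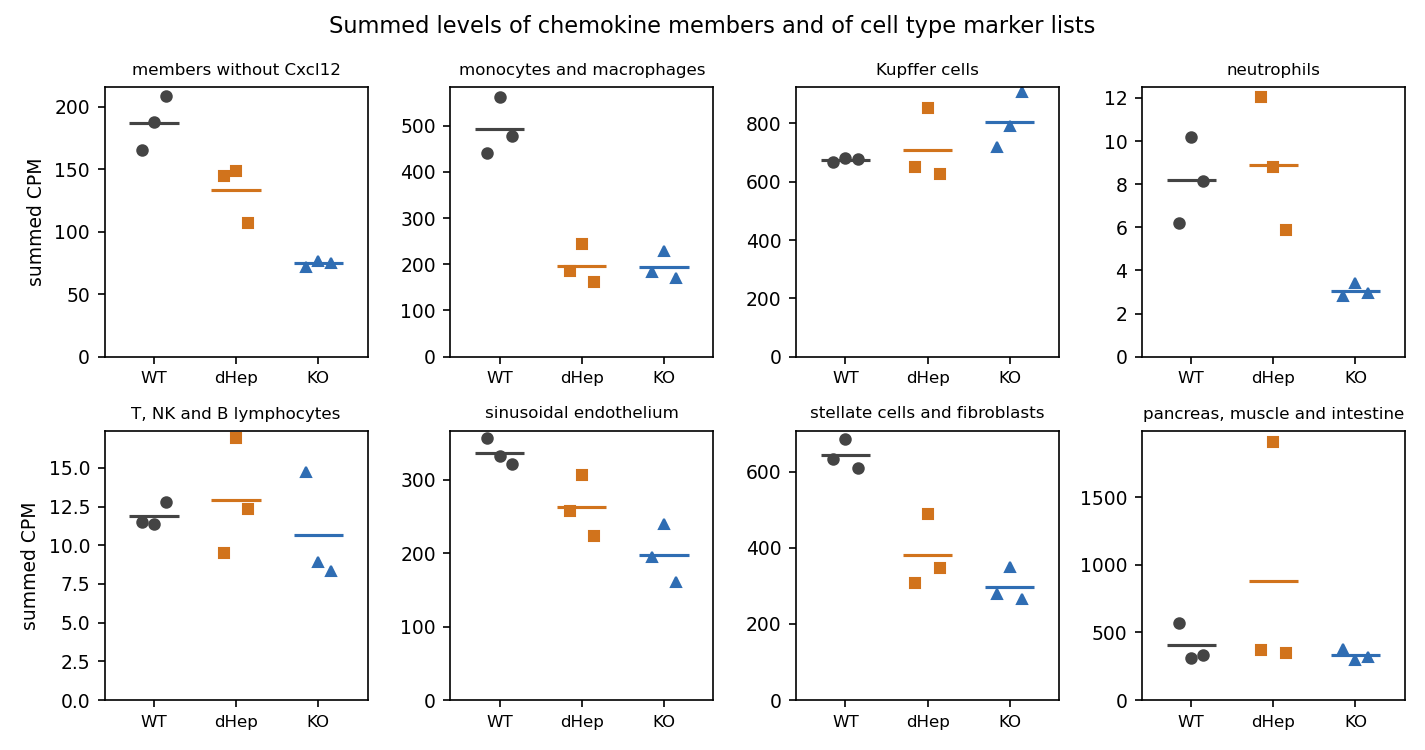
Summed CPM per library of the chemokine and receptor genes without Cxcl12 and of 7 lists of cell type markers, with a line at each group mean. Monocyte and macrophage markers lie between 440.5 and 562.5 CPM in WT and at or below 244.6 CPM in the other libraries, Kupffer cell markers between 626.3 and 909.1 CPM in all libraries, and dHep replicate 2 stands apart in the pancreas, muscle and intestine list at 1908 CPM.

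The remaining marker lists moved as follows. Sinusoidal endothelial markers summed to 321.6 to 356.5 CPM in WT, 223.7 to 306.0 CPM in dHep and 160.2 to 239.2 CPM in the livers labelled KO, with 3 and 6 of 8 lower (37.5% and 75.0%, against 11.9% and 22.1% of all genes; 0 to 2 in dHep with 1 library left out). Cholangiocyte markers summed to 123.7 to 196.0 CPM in WT, 44.07 to 56.70 CPM in dHep and 68.68 to 116.6 CPM in the livers labelled KO, but the fall of the sum was that of Spp1, which is also on the monocyte and macrophage list (152.3 CPM on average in WT, 43.4 in dHep and 76.2 in the livers labelled KO). Spp1 was the 1 of 5 tested that fell in each group. The median log2 fold change of the 5 was 0.26 in dHep and 1.09 in the livers labelled KO, where 4 were positive and 1, Sox9, rose. Among 7 tested hepatocyte markers, 4 rose in dHep (57.1%, against 12.4% of all genes; 2 without WT replicate 2 or 3) and 3 in the livers labelled KO (42.9%, against 20.9%). All 4 tested neutrophil markers fell in the livers labelled KO (100%, against 22.1% of all genes), and 3 or 4 did with 1 library left out. In dHep 0 of the 4 passed in edgeR, by DESeq2 or at an unadjusted p under 0.05. Of the 8 Kupffer cell markers, 2 rose (25.0%, against 12.4% of all genes) and 1 fell (12.5%, against 11.9%) in dHep. With 1 library left out, 1 or 2 rose and 0 or 1 fell there. In the livers labelled KO, 1 rose (12.5%, against 20.9%) and 2 fell (25.0%, against 22.1%). The part of these cells in the chemokine results was not tested.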

How the data were processed

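Stranded poly(A) RNA sequencing of 9 mouse livers gave the deposited table. Per the submitters' processing notes, reads were checked with FastQC and aligned to mm10 with HISAT2 2.1.0, and DESeq2 was used; per the file headers, featureCounts 1.6.2 with the reverse-strand setting (2) made the raw count of each gene and its length in bases (unit: other), used here for CPM per kb. Per the file headers no option for multi-mapped reads was set, so genes with near-identical copies can lose reads. Genes were kept by filterByExpr (minimum count 10, minimum total 15), and 13141 were fitted in edgeR 4.0.16 (R 4.3.3) with TMM factors, 1 mean per group and all 9 libraries, after a test on simulated data. The SE is the log2 fold change divided by the root of F. Named were every chemokine or receptor gene called in a comparison and every other with a mean of at least 1 CPM, 27 in all, every called gene of the other chemokine family list, and, from the 2 signalling lists, the 3 called genes per direction with the smallest p. The members and gene lists were chosen with earlier results of these data known, so a list's direction is not independent evidence. The 16 alternatives were median-of-ratios factors, DESeq2 1.42.0, no filter on low counts, a floor of 1 CPM in 3 or more libraries, the 2 compared groups alone, the replicate number as a block, each library left out, and the libraries that stand apart (WT replicate 1, dHep replicate 2) both left out. Some genes counted in these lists are not reported here by name. Promoters came from RefSeq on GRCm38.p6. Intervals and floors cover counting error only.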

Additional observations from a re-analysis of the deposited data

How the results depend on the processing

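No called gene changed sign under an alternative. Of the calls, 7 of 14 in dHep against WT, 7 of 18 in labelled KO against WT and 1 of 7 in labelled KO against dHep (Ccl9) passed under all alternatives with a value. Leaving out 1 library, the number of chemokine and receptor genes that rose was 1 to 4 in dHep and 0 to 2 in labelled KO, and the number that fell 8 to 15 and 9 to 18; between the deletion groups it was 0 to 2 higher and 2 to 8 lower. With only the 2 groups compared in the fit, 1 gene rose in labelled KO against WT, and 0 were higher and 2 lower than in dHep; 22 fell against WT. With both libraries that stand apart left out, those 3 counts were 1, 0 and 2. The replicate number was also fitted as a block. Same-numbered libraries did not deviate together (9 pairs, r = −0.27 to 0.03 across genes; 0 of 9 libraries matched its own number best), so the numbers were not taken as a pairing. The block gave 3 higher and 12 lower in dHep, 2 and 16 in labelled KO, and 1 and 5 between them; Ccl5 in dHep (adjusted p = 0.0532) and Cxcr6 between the deletion groups (adjusted p = 0.0743) did not pass, while Cxcl13 (adjusted p = 0.0248) and Cxcl16 (adjusted p = 0.0481) in dHep did.

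The 10 differences that were not called and changed sign had these values; the cause was not tested. With 1 library left out, Ccl9 in dHep against WT ran from −0.0858 (without dHep replicate 1) to 0.226 (without dHep replicate 3), and it was −0.057 without WT replicate 1 and −0.103 without both libraries that stand apart. In labelled KO against WT, Cxcl1 ran from −0.247 to 0.408 and Cxcl11 from −0.46 to 1e-04, in each case with the sign changed without KO replicate 1. In labelled KO against dHep, Ccl2 ran from −0.26 to 1.04, with −0.01 without dHep replicate 3. Ccl22 ran from −1.01 to 0.371, with 0.101 without dHep replicate 1, 0.216 without dHep replicate 2, 0.2145 without KO replicate 1 and 0.217 without both libraries that stand apart. Ccr2 ran from −0.203 to 0.1964, with 0.0971 without KO replicate 1 and 0.1967 without both. Ccl27a ran from −0.1107 to 0.289, with −0.1104 without both. Ccl25 ran from −0.443 to 0.819, Cxcr4 from −1.19 to 0.0717 and Cxcl13 from −1.72 to 0.771; Cxcl13 was −0.0191 without dHep replicate 1 and −0.483 with the replicate block. Depth limits the low genes: Ccl3 had 8 reads and Ccl4 and Ccl7 had 10 each over the dHep libraries.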
